A study of Mus musculus with 2 samples.

Results

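The genes described here encode the enzymes of glycolysis, of the pentose phosphate pathway and of pyruvate entry into mitochondria, together with genes of the cellular response to low oxygen. They were chosen by name. A list of 41 gene symbols was looked up among the probe sets of the array that carry exactly 1 gene symbol in the platform annotation, and 36 were found, of 18193 genes so named in all. Each gene is given by its brightest probe set, judged by the mean of the log2 signals of both arrays. The names Gpi1, Gapdh, Eno1, Pfkfb1 and G6pdx matched no such probe set and have no gene-level value here.

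The study asked how the blood glucose of the recipient affects grafted islets. Islets of wild-type (WT) C57BL/6 donors, 50 per recipient, were placed under the left kidney capsule of a male WT C57BL/6 recipient that was normoglycemic, or of a male heterozygous Akita recipient that was hyperglycemic. Akita mice carry a missense mutation of Ins2 and become insulin deficient. Each graft was taken 6 hours after transplantation, and total RNA of 1 sample per condition was hybridized to 1 array. The donors of both grafts were WT, so the Akita mutation was carried by the host only, and effects of genotype and of blood glucose cannot be told apart. Ages of these mice are not given in the labels, nor is it stated whether a sample pooled several mice. The values are MAS5 signals on a linear scale, without replicates, so no difference could be tested. All ratios below are hyperglycemic over normoglycemic and describe these 2 arrays.

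Glycolysis splits glucose into pyruvate in the cytosol. Hexokinases and phosphofructokinases set much of its rate, and fructose 2,6-bisphosphate, made and degraded by the Pfkfb enzymes, activates phosphofructokinase. Lactate dehydrogenase and the pyruvate dehydrogenase kinases decide how much pyruvate becomes lactate and how much enters mitochondria, while the pentose phosphate pathway turns glucose 6-phosphate into NADPH and ribose. When oxygen is short, the prolyl hydroxylases of the Egln family no longer mark HIF alpha subunits for Vhl-dependent degradation, and the stabilized factor induces many glycolytic genes. Freshly isolated islets have lost their capillaries and depend on diffusion until new vessels grow in. Beta cells normally hold little lactate dehydrogenase A and rely on glucokinase, which is not a member of the list. Proximal tubule cells of the kidney burn mainly fatty acids and use little glucose.

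The samples held islet and kidney tissue. Ins2 had a signal of 68738 in the normoglycemic and 88302 in the hyperglycemic graft, and signals of Kap, which marks the proximal tubule, were 89517 and 128500. The median log2 ratio was -0.01 over 11 beta cell genes and 0.03 over 14 proximal tubule genes. These genes are those that passed a filter on low values, a geometric mean of both signals of at least 87.1, which is the geometric mean of the array medians (82.9 and 91.5). The filter was passed by 11421 genes and by 35 of the 36 glycolysis and hypoxia genes. Eno2, an enolase of neurons and endocrine cells, did not pass, with signals of 56.9 and 61.8. Mean signals trimmed by 2% at each end were 495 and 494, and 18 hybridization controls were brighter on the hyperglycemic array by a median of 1.91-fold.

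The genes of glycolysis and hypoxia had, as a list, a median close to that of all genes, and Ankrd37, Pfkfb3 and Hk3 had the highest ratios among them. Over the 35 genes the median log2 ratio was -0.10, beside -0.06 over all 11421 genes. Of the 35, 3 (8.57%) were over 2-fold higher in the hyperglycemic graft, against 4.82% of all genes that passed the filter. They were the 3 genes just named. None (0 of 35) was over 2-fold lower, against 2.71% of all genes. At a limit of 1.5-fold, 5 were higher, adding Hif1a and Egln3 (14.3%, against 10.9% of all genes), and 2 were lower, Pfkm and Pklr (5.71%, against 11.6%). With so few members, these shares are counts over single arrays and were not tested. The count of 3 depended on dim signals, being 0 when signals were raised to the 75th percentile of their array and 1 when the array median was added to each.

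**Figure D1:**
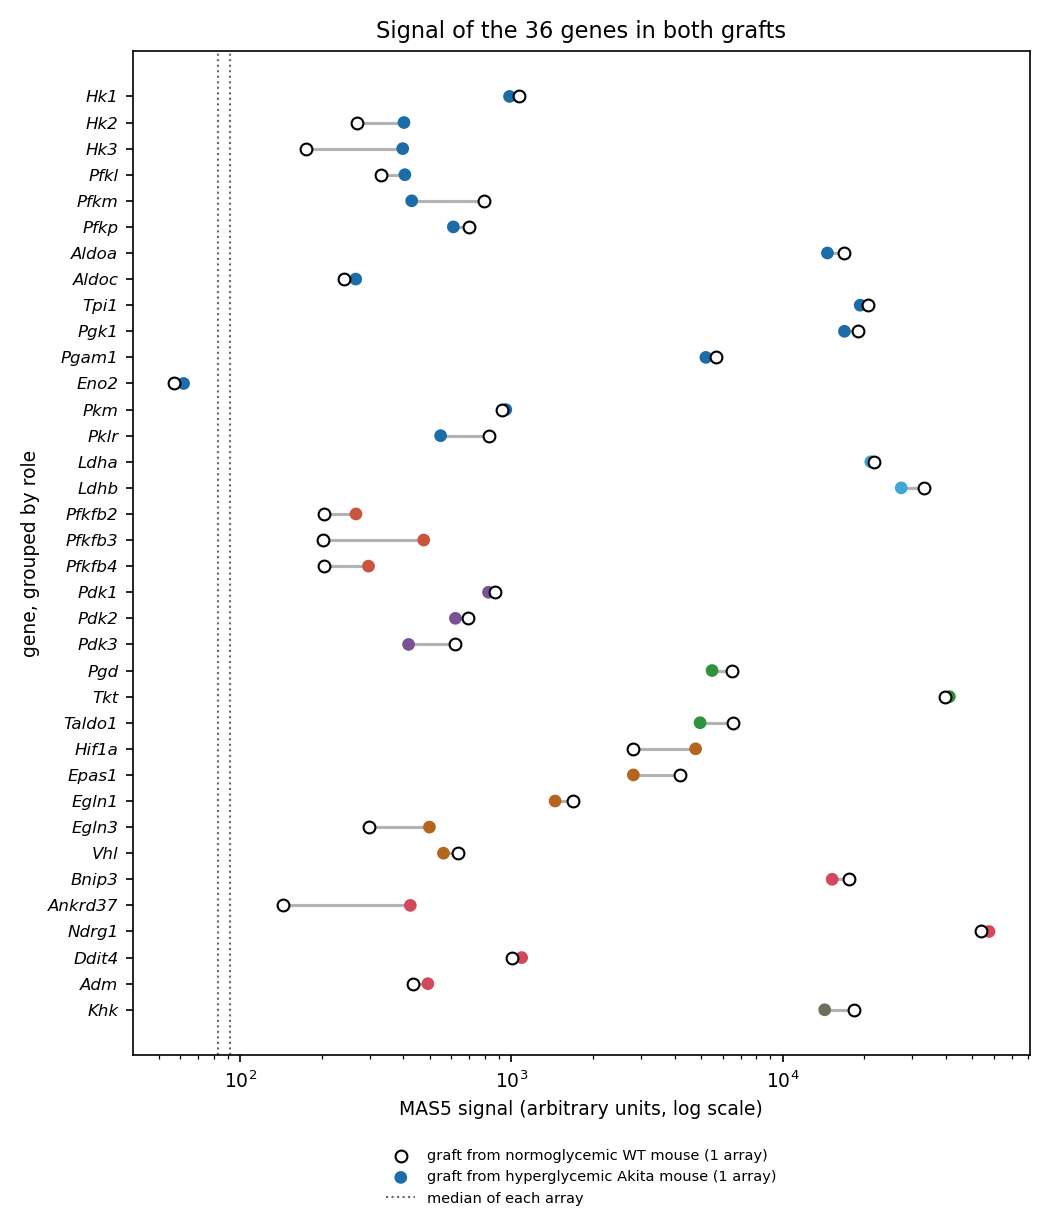
MAS5 signal (x axis, log scale, arbitrary units) of the brightest probe set of each of the 36 genes, grouped by role, with open circles for the normoglycemic and filled circles for the hyperglycemic graft, 1 array each, and the color of filled circles marking the role. The circles of Ankrd37 (144 and 424), Pfkfb3 (202 and 475) and Hk3 (174 and 397) lie over 2-fold apart, whereas those of Ldha, Tpi1, Tkt and Ndrg1 nearly coincide. Dotted lines mark the array medians.

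Ankrd37, an ankyrin repeat protein whose gene is a known HIF target, had a signal of 144 in the normoglycemic and 424 in the hyperglycemic graft (2.95-fold higher, log2 ratio 1.56). Only 2.13% of all genes had a higher ratio. It has a single probe set on the array. Pfkfb3, which makes fructose 2,6-bisphosphate and is induced by hypoxia and by inflammatory signals, had signals of 202 and 475 (2.35-fold higher). Its other probe set gave signals of 64.2 and 23.6, in the opposite direction but below the filter. Hk3, the hexokinase typical of leukocytes, had signals of 174 and 397 (2.28-fold higher), but its other probe set, which passed the filter, gave 141 and 118 (log2 ratio -0.26). The brighter one belongs to a class of probe sets that may bind other transcripts too, and the direction for Hk3 depended on the probe set.

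To judge how far such ratios scatter, the brightest probe set of each gene was set against the next one of the same gene over the whole array. This spread includes true differences between transcripts and holds no variation between animals. Of the 16 members with over 1 probe set that passed the filter, 5 had 1 sign of the log2 ratio over these probe sets. For the others, such as Vhl, Tkt, Ndrg1 and Pgk1, the direction differed between probe sets. Some of the contrary ratios were close to 0, such as 0.0025 for Pgk1. The same share over all genes was not counted, so this count is not a result about the members. Expressed per probe set, the SD of the log2 ratio was 0.61 for pairs whose lower mean signal was 64 to 256, 0.33 at 256 to 1024, 0.22 at 1024 to 4096 and 0.20 above 4096. Of the 35 genes that passed the filter, 17 (48.6%) had a log2 ratio past 1 such SD, against 45.9% of all genes, and 8 (22.9%) lay past 2 SD, against 16.4% of all genes. The shares of members were thus near the background. The 8 were Hk3, Pfkm, Pfkfb3, Taldo1, Hif1a, Epas1, Egln3 and Ankrd37.

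The HIF factors bind a short core sequence, read here as ACGTG or GCGTG on either strand, and RefSeq promoters (GRCm38.p6, 250 bases before to 50 after each annotated start) were searched for both. A match to CACGTG, the core bound by many other factors, counts as ACGTG on each strand. Of the 35 genes, 33 had a promoter entry. At least 1 ACGTG was found in a promoter window of 21 of these (63.6%), against 29.5% of the 9305 genes that passed the filter and had an entry. Per window, over all 39 listed genes with an entry, including those without a gene-level value, 27 of 60 windows (45.0%) held it. Of all 32851 windows 19.6% did. GCGTG was found in 51.7% and 32.4% of these windows, but per gene in 63.6% of the 33 members and 55.3% of the 9305 genes. CACGTG was found in 13.3% and 7.15% of windows. The list was chosen by name and holds known HIF targets, so larger shares among its members can follow from that choice alone. The promoters of the 3 genes over 2-fold higher are shown with those of 3 genes near equal signal (log2 ratio within 0.25 of 0) that held many ACGTG, so that both groups can be read side by side. Among the latter, Ldha held the most, and Hk1 and Bnip3 were taken for their GCGTG matches from several genes with 2 ACGTG, such as Pgk1, Pkm and Pdk2. They are written 5′ to 3′ on the strand of the gene, with both searched cores in capitals, in either orientation. The window with the most matches is shown for genes with several starts. Those of Ankrd37 (chr8:45999801-46000100, minus strand), Pfkfb3 (chr2:11502041-11502340, minus strand) and Hk3 (chr13:55021336-55021635, minus strand) come first. Ldha (chr7:46845554-46845853, plus strand), Hk1 (chr10:62340372-62340671, minus strand) and Bnip3 (chr7:138909457-138909756, minus strand) follow.
Ankrd37: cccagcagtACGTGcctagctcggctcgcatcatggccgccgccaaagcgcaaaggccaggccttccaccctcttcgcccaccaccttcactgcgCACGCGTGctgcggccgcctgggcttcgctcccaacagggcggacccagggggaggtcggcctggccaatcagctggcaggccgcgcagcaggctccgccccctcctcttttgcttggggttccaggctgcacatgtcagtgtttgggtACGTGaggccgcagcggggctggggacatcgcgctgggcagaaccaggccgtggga
Pfkfb3: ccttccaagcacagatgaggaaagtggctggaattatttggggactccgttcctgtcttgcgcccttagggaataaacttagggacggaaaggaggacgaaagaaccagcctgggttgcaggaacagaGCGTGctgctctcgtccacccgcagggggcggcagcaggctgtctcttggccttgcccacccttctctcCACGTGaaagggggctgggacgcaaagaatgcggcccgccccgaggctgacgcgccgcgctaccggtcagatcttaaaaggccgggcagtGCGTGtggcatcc
Hk3: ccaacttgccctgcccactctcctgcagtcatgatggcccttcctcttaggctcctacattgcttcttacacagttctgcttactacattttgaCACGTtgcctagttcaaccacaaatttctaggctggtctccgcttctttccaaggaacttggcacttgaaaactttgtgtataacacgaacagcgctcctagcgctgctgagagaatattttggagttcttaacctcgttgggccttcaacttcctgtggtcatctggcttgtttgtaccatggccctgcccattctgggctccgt
Ldha: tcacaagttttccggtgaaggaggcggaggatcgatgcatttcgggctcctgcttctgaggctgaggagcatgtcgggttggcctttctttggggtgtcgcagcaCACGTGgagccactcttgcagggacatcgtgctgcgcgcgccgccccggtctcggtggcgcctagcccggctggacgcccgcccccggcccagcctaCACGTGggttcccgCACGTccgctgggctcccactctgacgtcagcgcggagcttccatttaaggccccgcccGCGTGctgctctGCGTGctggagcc
Hk1: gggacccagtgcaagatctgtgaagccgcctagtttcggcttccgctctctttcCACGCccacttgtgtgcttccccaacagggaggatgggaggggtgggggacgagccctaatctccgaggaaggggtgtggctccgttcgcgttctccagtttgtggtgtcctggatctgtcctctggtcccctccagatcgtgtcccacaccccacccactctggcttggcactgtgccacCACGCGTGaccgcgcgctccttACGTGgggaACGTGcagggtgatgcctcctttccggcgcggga
Bnip3: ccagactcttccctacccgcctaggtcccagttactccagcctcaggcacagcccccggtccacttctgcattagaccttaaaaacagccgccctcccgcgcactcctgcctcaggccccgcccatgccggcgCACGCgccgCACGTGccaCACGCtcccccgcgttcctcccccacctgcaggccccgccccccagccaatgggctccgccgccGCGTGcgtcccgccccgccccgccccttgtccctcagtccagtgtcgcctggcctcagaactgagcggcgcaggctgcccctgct

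Genes with many matches included genes with near equal signals. Ankrd37 held 2 ACGTG and 2 GCGTG and was 2.95-fold higher, while the Ldha window held 5 ACGTG, 4 of them from 2 copies of CACGTG, beside signals of 21623 and 21121.5. Bnip3 held 2 ACGTG, both from 1 copy of CACGTG, and 3 GCGTG, and had a log2 ratio of -0.21. The 2 ACGTG of Pfkfb3 also came from 1 copy of CACGTG, whereas those of Ankrd37 were separate. Hk3 held 1 ACGTG and was 2.28-fold higher. Over the 21 genes with ACGTG the median log2 ratio was -0.03 (10 higher, 11 lower), and over the 12 without it -0.14 (4 higher, 8 lower). All 3 genes over 2-fold higher were among the 21. Over all genes the medians were -0.05 with and -0.06 without the motif, and 3.61% and 5.14% were over 2-fold higher. A match is a description of letters in these windows and not evidence of binding.

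Hexokinases, which trap glucose in the cell, differed among themselves. Hk1, the constitutive form, had signals of 1068 and 984, and Hk2, the form induced by insulin and by hypoxia, 269.7 and 402 (1.49-fold higher). The log2 ratio of Hk3 exceeded that of Hk1 by 1.31 and that of Hk2 exceeded it by 0.69, beside a probe set SD of 0.40 for either difference, combined from both genes. Hk3 and Hk2 differed by 0.61 with an SD of 0.47. The second probe set of Hk3 (-0.26) lay below both other hexokinases, so the place of Hk3 among them depended on the probe set.

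The 3 phosphofructokinase subunits also parted. Pfkm, the muscle type subunit, had signals of 795 and 429 (log2 ratio -0.89), with a lower ratio in only 4.07% of all genes. Pfkl, the liver type, had signals of 330.3 and 405, and Pfkp, the platelet type, 699 and 611. The log2 ratio of Pfkl exceeded that of Pfkm by 1.18 (probe set SD 0.47), while Pfkl and Pfkp differed by 0.49 (SD 0.47). Pfkl had 2 further probe sets that passed the filter. They gave log2 ratios of -0.08 and 2.47, and the latter had signals of 41.4 and 229, so it passed through the hyperglycemic array.

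The enzymes below phosphofructokinase were near equal. Aldoa, which cleaves fructose 1,6-bisphosphate, had signals of 16774 and 14619.9, and the log2 ratios of its 5 probe sets lay between -0.28 and 0.01. Tpi1, which interconverts the products, had signals of 20697 and 19308.5. Pgk1, the first enzyme to make ATP, had signals of 18950.1 and 16893. Pgam1, a phosphoglycerate mutase, had 5675 and 5209, and Pkm, pyruvate kinase of most tissues, 925 and 953. Aldoc, the brain type aldolase, had 241 and 267. For all of these genes the log2 ratio lay between -0.20 and 0.15. Pklr, pyruvate kinase of liver, kidney and beta cells, was the exception, with signals of 824 and 548 (log2 ratio -0.59). Its second probe set had signals of 270.5 and 264.

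Gapdh can be read only through control probe sets, which lie at different distances from the 3′ end of the transcript. The 3′ one had signals of 28983 and 31101, the middle one 25433 and 21078 and the 5′ one 22282 and 17666. The ratio of 3′ to 5′ signal, a sign of RNA quality, was 1.30 in the normoglycemic and 1.76 in the hyperglycemic graft. For the control probe sets of Actb, an actin gene, this ratio was higher on both arrays, at 3.54 and 3.99. The log2 ratio of Gapdh between grafts ran from 0.10 at the 3′ end to -0.33 at the 5′ end. Of the 13 glycolytic enzymes that passed the filter, 7 had log2 ratios within these limits, and the part of RNA quality in them was not tested. Over the 13 enzymes the median log2 ratio was -0.12, with 5 higher and 8 lower.

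**Figure D2:**
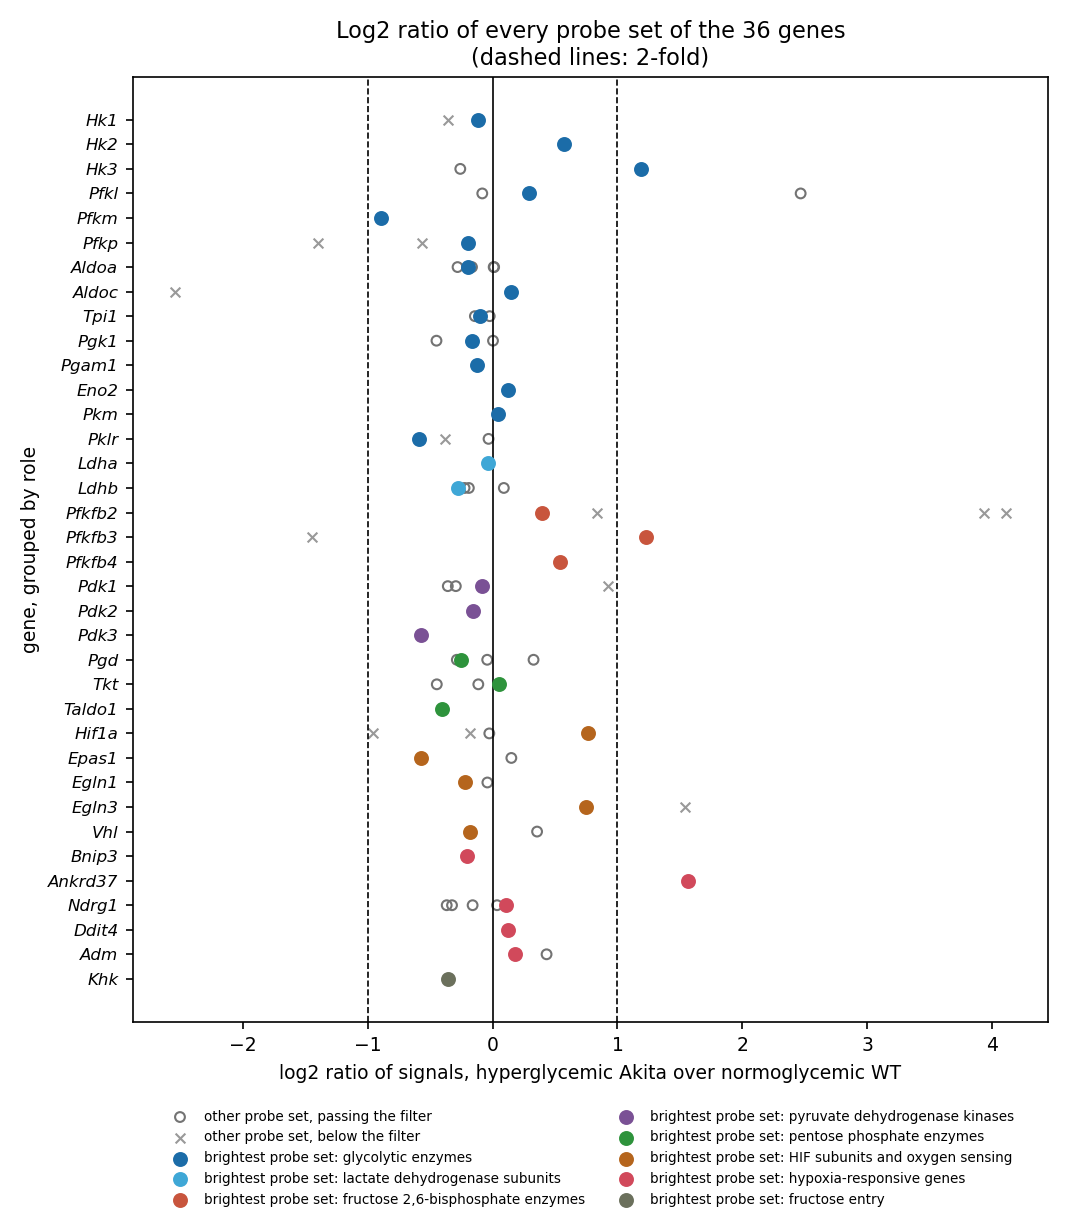
Log2 ratio of hyperglycemic over normoglycemic signal (x axis) for all 80 probe sets of the 36 genes, with filled circles for the brightest probe set of a gene, open circles for others that passed the filter and crosses for those below it. Brightest probe sets past the dashed 2-fold line are those of Hk3, Pfkfb3 and Ankrd37, and the open circles of Hk3 (-0.26) and Hif1a (-0.03) lie on the other side of 0. Of 16 genes with over 1 probe set that passed the filter, 5 have all of these on 1 side of 0, a share not counted over all genes.

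Lactate dehydrogenase was near equal. Ldha, the A subunit that favors lactate formation, had signals of 21623 and 21121.5 (log2 ratio -0.03), and Ldhb, the B subunit of oxidative tissues, 33217 and 27354 (log2 ratio -0.28). The 4 probe sets of Ldhb spanned -0.28 to 0.09. The difference of 0.25 between the subunits was within the probe set SD of 0.28.

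All 3 measured Pfkfb genes were higher in the hyperglycemic graft. Beside Pfkfb3, Pfkfb4, which is also induced by hypoxia, had signals of 204 and 297 (1.46-fold higher), and Pfkfb2, the heart type enzyme that is also found in islets and kidney, 204 and 267 (1.31-fold higher). The ratios of Pfkfb4 and Pfkfb2 were within 1 probe set SD of 0.61 from equality. The other 3 probe sets of Pfkfb2 were below the filter and also pointed to the hyperglycemic graft.

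The pyruvate dehydrogenase kinases switch off pyruvate entry into the citric acid cycle. Those on the list, Pdk1, Pdk2 and Pdk3, were lower or near equal, whereas Pdk4 was higher. Pdk1, a HIF target, had signals of 871 and 823, Pdk2, the broadly expressed form, 694 and 622, and Pdk3 622 and 418 (1.49-fold lower). Pdk4, a form induced by fasting, glucocorticoids and fatty acids that is not on the list of 41, had signals of 2783 and 5639.8 (2.03-fold higher). Its log2 ratio exceeded those of Pdk2 and Pdk3 by 1.18 and 1.59, each with a probe set SD of 0.40.

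The pentose phosphate enzymes all lay within 1.5-fold of equal signals. Pgd, which yields NADPH, had signals of 6529.5 and 5490.4, and its 4 probe sets ranged from -0.29 to 0.33 on the log2 scale. Tkt, transketolase of the nonoxidative branch, had signals of 39818 and 41156. Taldo1, transaldolase, had signals of 6581 and 4960.5 (1.33-fold lower), past 2 probe set SD. Khk, which phosphorylates fructose and is prominent in the proximal tubule, had signals of 18319.5 and 14282 (1.28-fold lower). The 14 proximal tubule genes, with ratios from -0.57 to 0.52 on the log2 scale, were divided into 7 higher and 7 lower.

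The HIF alpha subunits went in opposite directions. Hif1a, present in most cells, had signals of 2812 and 4775 (1.70-fold higher) on its brightest probe set. Epas1, which encodes HIF-2 alpha and is prominent in endothelium and interstitial cells, had signals of 4187 and 2815 (1.49-fold lower). Their log2 ratios differed by 1.34, with a probe set SD of 0.31. The contrast was not carried by the second probe sets, which gave 1159.6 and 1138 for Hif1a and 119.6 and 133 for Epas1. Because HIF subunits are controlled mainly at the protein level, transcript signals do not measure their activity.

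Of the oxygen sensors, Egln3, whose gene is itself a HIF target, had signals of 297 and 499 (1.68-fold higher), and its second probe set, 35.6 and 103, pointed the same way from below the filter. Egln1, the main hydroxylase in normoxia, had signals of 1692 and 1449, and the difference between both log2 ratios was 0.97 (probe set SD 0.40). Vhl, the ubiquitin ligase subunit, had signals of 637 and 562. Most hypoxia-responsive genes were near equal. Bnip3, a mitophagy receptor, had signals of 17578 and 15224, Ndrg1, a stress response gene, 53647 and 57621, Ddit4, an inhibitor of mTORC1, 1002 and 1091, and Adm, the vasodilator adrenomedullin, 435 and 492. Of these 5 genes Ankrd37 alone was over 1.5-fold apart.

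**Figure D3:**
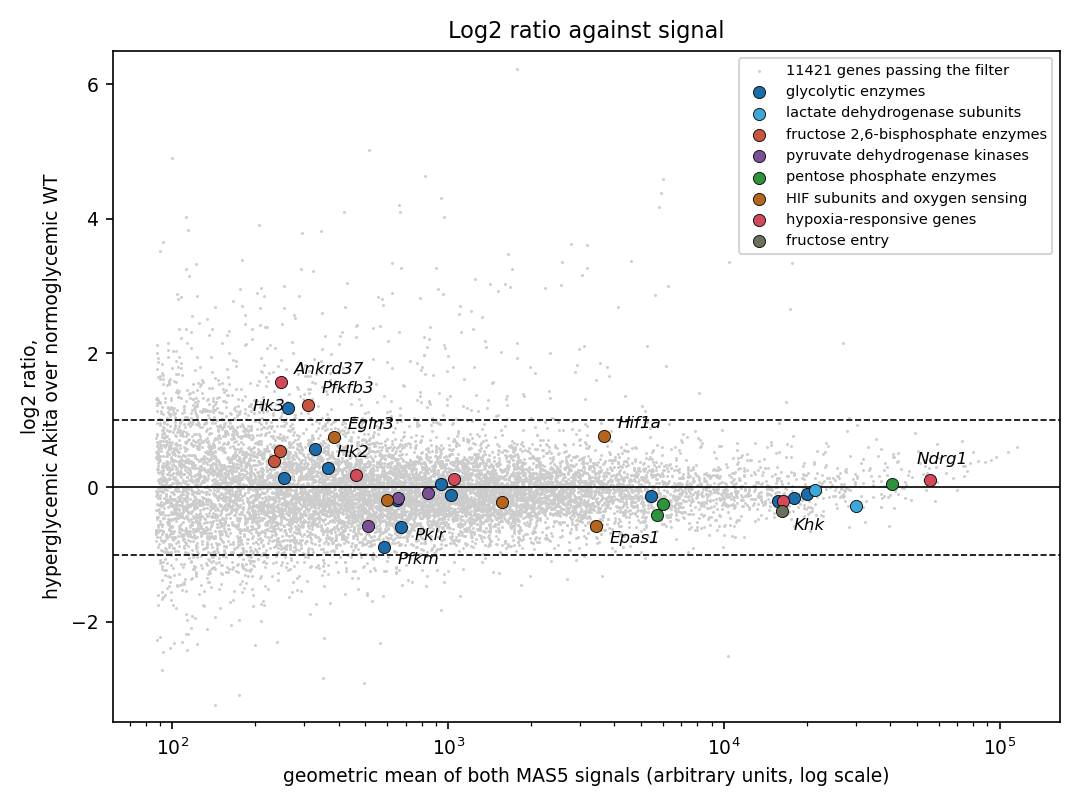
Log2 ratio of hyperglycemic over normoglycemic signal (y axis) against the geometric mean of both signals (x axis, log scale, arbitrary units) for 11421 genes (grey) and the 35 genes of glycolysis and hypoxia (colored by role). The 12 members with mean signals of at least 4096 lie between -0.41 and 0.10, and those over the upper dashed 2-fold line have mean signals below 512.

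The dimmest members differed from the others in direction. Of 11 members with a mean signal below 512, 10 were higher in the hyperglycemic graft, with a median log2 ratio of 0.54, beside -0.03 over the 5091 genes of this range. The lone exception was Pdk3, whose mean signal of 509 lay next to the limit. The limit of 512 was an arbitrary choice, and the share of all genes that were higher was not counted in these ranges. Of the 10, Pfkl, Aldoc, Pfkfb2, Pfkfb4 and Adm lay within 1 probe set SD of equality. Hk3 (-0.26) and Pfkl (-0.08) each had another passing probe set below 0, while a further one of Pfkl gave 2.47. Of 12 members with mean signals of 512 to 4096, 3 were higher (median -0.17, all genes -0.08). Of 12 at 4096 or above, 2 were higher (Tkt and Ndrg1, both of which turned sign under at least 1 other scaling of the arrays), and the median was -0.18 beside -0.04 over 1237 genes. None of the latter 12 was over 1.5-fold apart, which 8.08% of all genes in that range were. In the lowest range 7.84% of all genes were over 2-fold higher, against 3 of 11 members.

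Other genes of these pathways, listed by name, also had a median near equality. Of 64 such genes 58 were found and 54 passed the filter, with a median log2 ratio of -0.03. Of the 54, 3 were over 2-fold higher and 1 was over 2-fold lower, beside 4.82% and 2.71% of all genes that passed the filter. Hilpda, a HIF-induced lipid droplet protein, had signals of 171 and 567 (3.31-fold higher), and Gapdhs, the sperm form of the dehydrogenase, 72.2 and 347 (4.81-fold higher, with only the hyperglycemic signal above the array median). The remaining gene over 2-fold higher was Pdk4. Car9, a carbonic anhydrase and textbook HIF target, had signals of 295 and 131 (2.26-fold lower). Slc2a1, the glucose transporter of the same program, had signals of 3061 and 4922 (1.61-fold higher). Mxi1, a MYC antagonist, was 1.46-fold lower, and Narf 1.43-fold lower.

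Among other glycolytic genes, Bpgm, which makes 2,3-bisphosphoglycerate in red cells, was 1.56-fold higher, and Pgam2, the muscle mutase, and Hkdc1, a hexokinase domain protein, were 1.52-fold and 1.79-fold lower. None of 7 other pentose phosphate genes was over 1.5-fold apart. Their ratios ran from Rpia, ribose 5-phosphate isomerase, with signals of 1591 and 1062, to Prps1, which makes phosphoribosyl pyrophosphate (log2 ratio 0.24). Pgls was 1.28-fold lower, and H6pd and Rbks had log2 ratios of 0.16 and -0.10. For known HIF targets and other HIF pathway genes the named values thus went both ways. Ankrd37, Hilpda, Egln3 and Slc2a1 were higher, Car9, Mxi1 and Narf lower, and Ldha, Pgk1, Pdk1 and Bnip3 near equal. Hilpda, Slc2a1, Car9, Mxi1 and Narf were named for the largest ratios in the list of other HIF pathway genes. Of the 28 genes of that list that passed the filter, 25 lay within 1.5-fold of equal signals, and the median log2 ratio was 0.03.

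**Figure D4:**
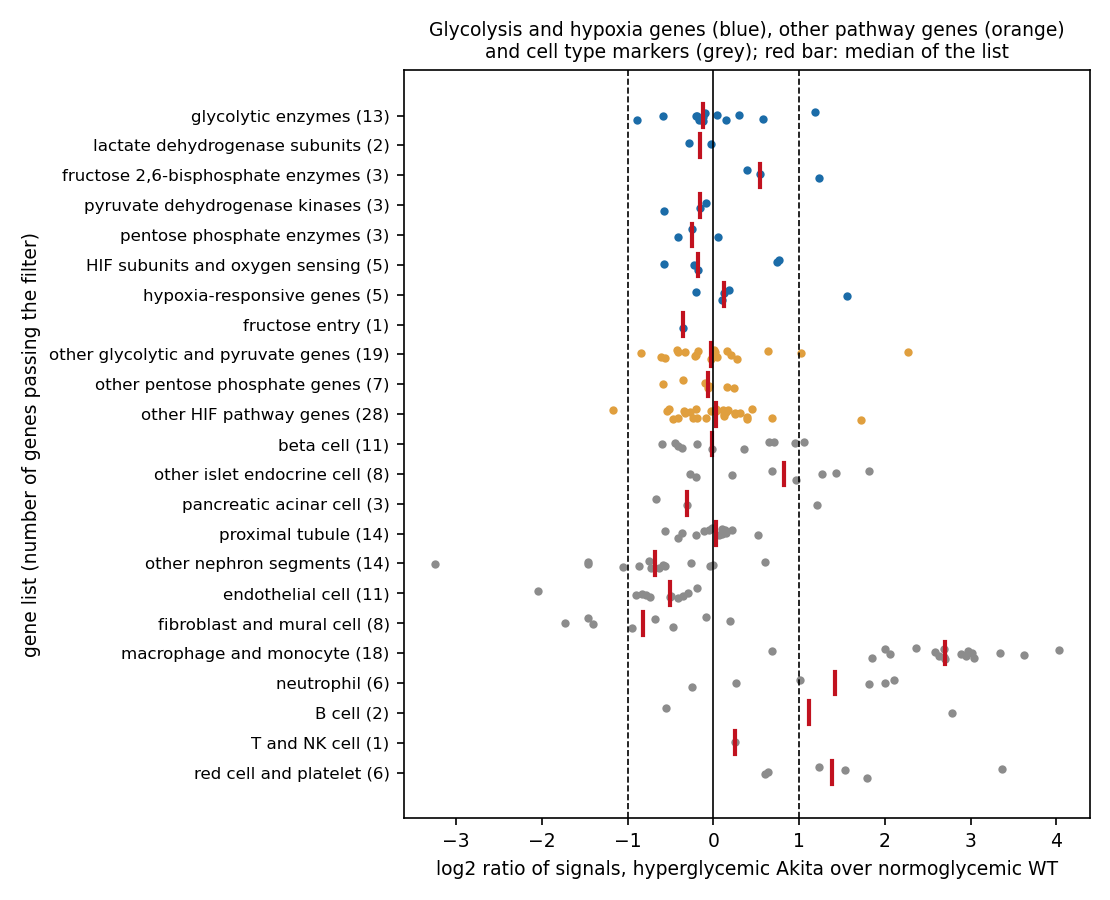
Log2 ratio of hyperglycemic over normoglycemic signal (x axis) for the genes of each list that passed the filter, 1 point per gene, with glycolysis and hypoxia genes in blue, other pathway genes in orange, cell type markers in grey and list medians as red bars. The medians of glycolytic enzymes (-0.12) and other HIF pathway genes (0.03) lie near 0, those of macrophages (2.70) to the right and of endothelium (-0.51) and other nephron segments (-0.69) to the left.

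Several lists of cell type markers had medians farther from 0 than that of the glycolytic enzymes. In such bulk samples fewer cells of a type and less RNA per cell cannot be told apart. Of 21 macrophage and monocyte markers 20 were found, with a summed signal of 15875 in the normoglycemic and 122155 in the hyperglycemic graft. Of 18 that passed the filter 17 were over 2-fold higher, such as Lyz2, lysozyme, at 5539 against 55987, while 4 of the 20 were below the median of the normoglycemic and 2 below that of the hyperglycemic array. The 11 neutrophil markers found, of 13, had summed signals of 4756 and 17731, with 5 and 4 below the medians. Most of both sums came from S100a9 (2536 and 10929.6) and S100a8 (1558 and 5481), and of the 6 that passed the filter 4 were over 2-fold higher, Mmp9 had signals of 120 and 144 and Mpo had 140.4 and 118, both named here after their values were seen. Among the 8 red cell and platelet markers found, of 10, the sums were 3618 and 20347.5, with 2 and 1 below the medians. The platelet gene Pf4 alone contributed 1433 and 14749, and the median over the 6 that passed the filter was 2.61-fold higher. Hk3, Pfkfb3, Hif1a and Bpgm, higher in the same sample, are expressed in blood cells, and the part of these cells in their ratios was not tested.

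Markers on the lower side were those of vessels and distal tubules. The 13 endothelial markers had summed signals of 6908 and 4543, with 1 and 3 below the medians, and all 11 that passed the filter were lower. The 14 markers of other nephron segments had 65385 and 48263, with 0 and 1 below the medians, and 13 of the 14 were lower. The 10 fibroblast and mural cell markers had 5832 and 3852, with 2 and 0 below the medians. Epas1, Pfkm, Pdk3 and Car9 were lower in the same sample, and the part of these cells in their ratios was not tested. Islet endocrine genes other than those of beta cells were instead higher in sum. The 9 of 10 found had summed signals of 45341 and 76182, with 0 and 1 below the medians. Gcg, the glucagon gene, alone contributed 10784 and 26023, and of the 8 that passed the filter 6 were higher and 2 lower. Acinar markers had a median log2 ratio of -0.31 over the 3 that passed the filter, and 5 and 6 of the 8 found were below the medians. Of B cell markers 2 passed, with opposite directions, Ms4a1 at 63.3 and 435 and Ighm at 298 and 203. Of T and NK cell markers 1 passed, and 8 of the 9 found were below the median of either array.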

How the data were processed

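RNA of 1 islet graft sample per condition was measured on MOE430 2.0 arrays from 100 ng of total RNA. The authors deposited MAS5 signal intensity values on a linear scale. The version and settings of MAS5 are unknown here. Scaling of the arrays is not stated either, but their means trimmed by 2% at each end were near equal (495 and 494). The members and all gene lists were chosen with earlier results of these data known, and lists support nothing by themselves. Of 45101 probe sets, 64 were controls, 34945 carried 1 gene symbol, 932 several and 9160 none. All 36 members matched a RefSeq gene by identifier. Signals were used without further scaling, and genes were kept when the geometric mean of both signals reached 87.1. With 1 array a condition, their number limits precision and nothing was tested. A gene was counted as higher or lower past a 2-fold ratio. The text names every member found, up to 5 genes of each other pathway list with the largest ratios, and up to 2 of the most intense markers of a list, of which only those that bear on a result are printed. Alternatives covered scaling (median, quantile, loess with span 0.3 and 3 iterations, proximal tubule or beta cell genes), floors, an added constant, the probe set, the filter and the limit. Python 3.11.15, numpy 2.4.6, pandas 2.3.3, statsmodels 0.14.6 and matplotlib 3.10.9 were used.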

Additional observations from a re-analysis of the deposited data

How the results depend on the processing

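The median log2 ratio of the members ranged from -0.14 to -0.04 and that of the glycolytic enzymes from -0.17 to -0.06 over 14 alternatives. The count of 3 members over 2-fold higher was 0 with low signals set to their array's 75th percentile, 1 with the array median added to each signal, 2 without probe sets ending in _x_at or _s_at (Hk3 was lost), 5 at a limit of 1.5-fold and 0 at 3-fold. The count of 0 over 2-fold lower was 1 with the median over a gene's probe sets (Aldoc, -1.20) and 2 at 1.5-fold. Ankrd37 was over 2-fold higher in 10 of 11 alternatives, Pfkfb3 in 8 and Hk3 in 7. These counts do not measure robustness, because several alternatives could not change the calls. Floors at the array median or the 25th percentile lay below all signals of the 3 genes, and Ankrd37 has a single probe set. Ankrd37 had a log2 ratio of 0.07 with the 75th percentile and 1.19 with the added constant. The log2 ratio of Pfkfb3 was -0.11 with the median of all probe sets, and that of Hk3 was -0.26 without its _x_at probe set. In both, a second probe set of the gene pointed the other way. With the median of all probe sets Hif1a had -0.10, Egln3 1.14 and Pfkfb2 2.39. The 5 scalings turned the sign of 4 members near 0 (Eno2, Ldha, Ndrg1 and Tkt). Over all genes, 551 were higher and 309 lower, against 2467 and 2137 with no filter, 948 and 695 with 1 signal at the array median, 382 and 204 with both, 758 and 504 with the median of probe sets, 309 and 97 with the added constant, 166 and 50 with the 75th percentile, 1243 and 1320 at 1.5-fold, and 237 and 58 at 3-fold. No paired analysis was possible because each condition had 1 array.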
